A study of Mus musculus with 6 samples.

Results

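A set of 37 genes of base excision repair, single-strand and double-strand break repair and the damage checkpoint was followed in mouse forebrain, out of 35275 gene identifiers in the deposited tables. The members were a fixed list of gene symbols, matched to Ensembl identifiers through the GENCODE M21 annotation, and all 37 had a row. They were sorted into 6 groups by role: 11 DNA glycosylases, 5 genes of the AP-site and gap-filling steps, 5 single-strand break factors, 6 end-joining factors, 4 damage kinases, and 6 genes of break sensing and homologous recombination. Poly-A RNA was sequenced from the forebrains of 6 C57BL/6 mice at postnatal day 9. In 3 conditional knockout mice (cKO, Pdgfra-CreER:Parp1fl/fl) tamoxifen, given intraperitoneally on postnatal days 1, 2 and 3, activates a Cre recombinase under the control of Pdgfra, a gene of oligodendrocyte precursor cells and of fibroblasts. The 3 littermate controls carried the same floxed Parp1 alleles without Cre and received the same tamoxifen, so floxed alleles and tamoxifen were common to both groups. All cells of the forebrain contributed RNA, and only the Cre-expressing lineage could lose Parp1.

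PARP1 binds broken DNA and attaches chains of ADP-ribose to itself and to nearby proteins, and these chains recruit the scaffold XRCC1 and its partners. In base excision repair a glycosylase removes a damaged base, an AP endonuclease cuts the strand, a polymerase fills the gap and a ligase closes it. Double-strand breaks are joined by the Ku and DNA-PK pathway or copied from the sister chromatid by homologous recombination, and the kinases ATM and ATR signal damage to the cell cycle. In neurons, defects of single-strand break repair are known from inherited ataxias, among them those of APTX and TDP1.

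Total counts ran from 17262042 to 29310193 per library. Parp1 itself, counted over all its exons and all cells, was at 90.8, 97.3 and 85.6 CPM in the controls and at 80.8, 79.7 and 79.1 CPM in the cKO mice, in the order of replicates 1 to 3, as in every such series of values here. CPM are counts scaled to equal library totals with TMM factors. The groups did not overlap, and the log2 fold change of -0.19 was not called (edgeR's quasi-likelihood test, adjusted p = 0.572). Control replicate 3 stood apart in tissue content: striatal markers summed to 461 CPM there (1150 to 1430 CPM elsewhere) and thalamic markers to 587 CPM (273 to 310 CPM elsewhere). The Y-linked gene Ddx3y was at 64.8 CPM in control replicate 1 and at most 0.0493 CPM in the rest, so the groups were not balanced for sex. Forebrain markers summed to 667 to 956 CPM over the 6 libraries, and markers of midbrain and hindbrain summed to 37.4 CPM in control replicate 3 and to 4.1 to 6.44 CPM elsewhere, with 5 of those 12 genes at 0 in every library.

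No member was called between the cKO and control forebrains: 0 of 36 tested members passed edgeR's quasi-likelihood test at an adjusted p under 0.05, against 0.266% of all 16938 tested genes (0.059% higher and 0.207% lower in cKO). DESeq2 and limma on the FPKM values also called 0. At an unadjusted p under 0.05 there were 2 members, Neil2 and Apex2, both higher in cKO, which is 5.56% of the members beside 6.27% of all tested genes. DESeq2 gave 0 and limma 1 member, Mpg, at that level. Log2 fold changes of the members ran from -0.20 to 0.65 with a median of 0.00, the same as the median of 0.00 over all tested genes, and 18 were positive and 18 negative, beside 49.8% positive among all tested genes. In bulk tissue, fewer cells of a type and less RNA per cell cannot be told apart, so these values describe the forebrain as a whole and not the cells that lost Parp1.

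How large a difference could have been missed is given by the 95% confidence intervals. For 31 of 36 members (86.1%) the interval lay within 1.5-fold either way, as it did for 68.8% of all tested genes. The 5 members whose interval reached past 1.5-fold were Neil2, Neil3, Nthl1, Nhej1 and Chek2, with 332, 258, 410, 157 and 379 reads in all 6 libraries together. The abundant member Tdg, with 11859 reads in all, had a log2 fold change of -0.12 with an interval from -0.28 to 0.03. Each of the 36 tested members had at least 12 reads in every library, so none passed the filter on low counts through 1 group alone.

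**Figure D1:**
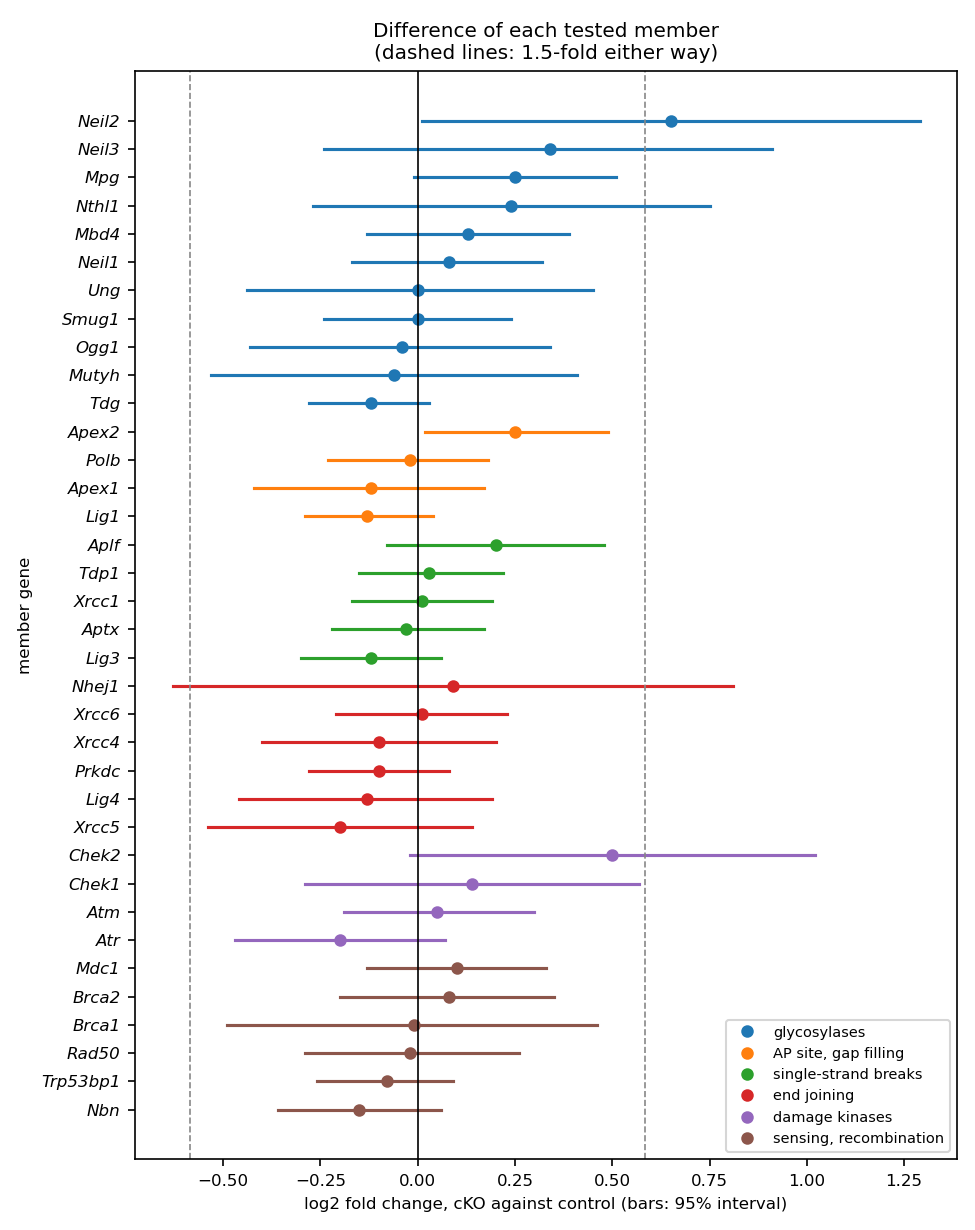
Log2 fold change of cKO against control (x axis) for each of the 36 tested members (y axis), with bars for the 95% confidence interval, colours for the pathway group and dashed lines at 1.5-fold either way. The values sit between -0.20 for Xrcc5 and Atr and 0.65 for Neil2, and 31 of the 36 intervals stay between the dashed lines.

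Groups did not overlap for 7 of 36 members (19.4%), beside 11.9% of all tested genes. Neil2, Mpg, Apex2 and Aplf were higher in all 3 cKO mice than in all 3 controls, beside 6.08% of all tested genes, and Apex1, Lig1 and Nbn were lower, beside 5.86%. With 3 mice against 3, an exact two-sided permutation test cannot go below p = 0.1, the value that any separate groups give, so it adds nothing to this count. These 7 belong to 4 of the 6 role groups, and end joining and the damage kinases held none. Those groups have only 6 and 4 members, too few for a count of 0 to set them apart from all tested genes.

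Levels between genes were compared in FPKM, which divides by gene length. Polb was the most abundant member at 26.4 ± 2.38 FPKM (SD over n = 6 libraries), followed by Tdg at 25.1 ± 1.67 and Xrcc1 at 19.5 ± 1.21 FPKM. Polb and Tdg lay within their spread of each other, and Xrcc1 was below both in each library. Trp53bp1 at 15.2 ± 1.29 FPKM and Lig1 at 10.5 ± 0.670 FPKM came next, and no other member averaged more than 10 FPKM. The lowest members after Fen1 were Brca1 at 0.533 ± 0.0933, Neil3 at 0.608 ± 0.119, Chek1 at 0.809 ± 0.0746 and Brca2 at 0.897 ± 0.0685 FPKM. Brca1 and Neil3 did not differ beyond their spread, and neither did Chek1 and Brca2.

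**Figure D2:**
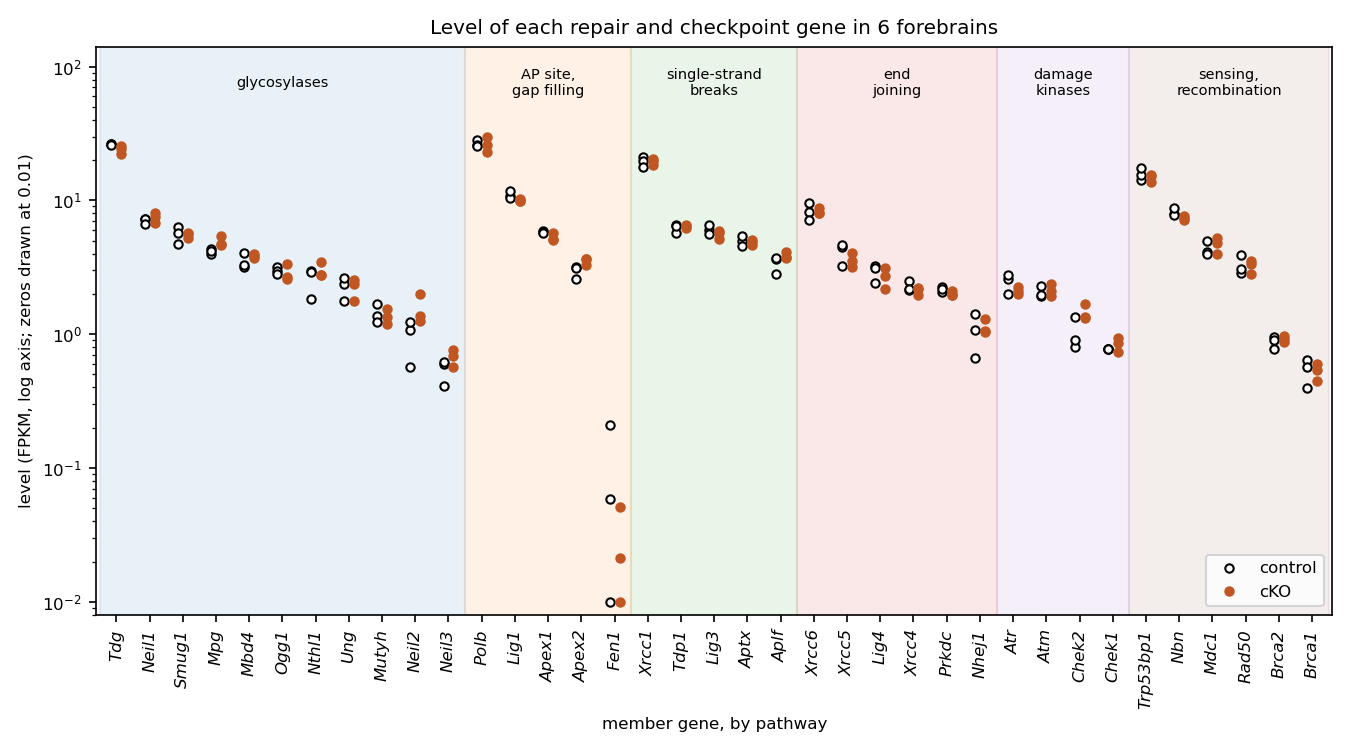
FPKM on a log axis (y) for each of the 37 members (x), ordered by mean level within the 6 pathway groups, with 1 point per library, open for the 3 controls and filled for the 3 cKO mice. Polb, Tdg and Xrcc1 lead at 19.5 to 26.4 FPKM on average, Fen1 lies lowest at 0.0567 FPKM, and the open and filled points of most genes fall in the same range.

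DNA glycosylases, which recognise and excise damaged bases, covered a range from 0.608 FPKM for Neil3 to 25.1 FPKM for Tdg. Of the 11, 7 had a positive and 4 a negative log2 fold change, with a median of 0.08. Neil2 (chromosome 14, 63182443 to 63193856 in mm10), which removes oxidised pyrimidines, also from transcribed and single-stranded DNA, was at 1.10, 2.07 and 2.418 CPM in the controls and at 3.80, 2.423 and 2.71 CPM in the cKO mice. The highest control and the lowest cKO value were 2.418 and 2.423 CPM, so the groups were separate by less than counting error, and control replicate 1 was lowest with 19 reads. The means were 1.86 ± 0.685 CPM in controls and 2.98 ± 0.725 CPM in cKO (SD, n = 3 mice each), and the log2 fold change was 0.65 with a 95% interval from 0.01 to 1.29 (edgeR adjusted p = 0.785). Without control replicate 1 the log2 fold change was 0.40, without cKO replicate 1 it was 0.45, and over the 6 omissions of 1 library it ran from 0.40 to 0.86.

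Mpg, the glycosylase for alkylated purines (chromosome 11, 32226505 to 32232700), was at 9.18, 8.42 and 8.99 CPM in the controls and at 11.35, 10.01 and 10.3 CPM in cKO. All 3 cKO mice were above all 3 controls, with a log2 fold change of 0.25 (95% interval -0.01 to 0.51, edgeR adjusted p = 0.816). Exons of Nprl3 on the opposite strand cover 35.7% of its exon length. Tdg, the thymine and 5-formylcytosine glycosylase that links repair to DNA demethylation, was at 91.4, 92.1 and 91.3 CPM in controls and at 76.2, 84.8 and 91.4 CPM in cKO. The controls were tightly grouped and cKO replicate 3 lay inside their range, so the groups overlapped (log2 fold change -0.12, edgeR adjusted p = 0.839). Ogg1 and Mutyh, which handle 8-oxoguanine and the adenine paired with it, had log2 fold changes of -0.04 and -0.06. Ung and Smug1, which remove uracil, both had 0.00, and Mbd4 and Neil1 had 0.13 and 0.08. Neil3, the glycosylase of proliferating progenitors, and Nthl1, an oxidised-pyrimidine glycosylase, had larger and less precise values of 0.34 (95% interval -0.24 to 0.91) and 0.24 (-0.27 to 0.75).

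Steps after base removal are cutting of the abasic site, gap filling and ligation. Apex2, an AP endonuclease and exonuclease encoded on the X chromosome (150519519 to 150589868), was at 15.1, 14.6 and 12.5 CPM in the controls and at 16.9, 17.3 and 15.9 CPM in the cKO mice. All cKO values exceeded all control values, and control replicate 3 was lowest. The log2 fold change was 0.25 with a 95% interval from 0.02 to 0.49 (edgeR adjusted p = 0.768), and it ran from 0.16 (without control replicate 3) to 0.30 (without control replicate 1) with 1 library omitted. Control replicate 1, the library with Ddx3y, had the highest control value of this X-linked gene, and the part of sex in the difference was not tested. Apex1, the main AP endonuclease (chromosome 14, 50924968 to 50927139), was at 7.28, 7.18 and 7.12 CPM in the controls and at 6.96, 6.34 and 6.54 CPM in cKO. Here the cKO values were all below the controls, by a log2 fold change of -0.12 with a wider interval, from -0.42 to 0.17 (edgeR adjusted p = 0.909).

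Polb, the gap-filling polymerase of short-patch repair, was at 34.8, 31.65 and 31.57 CPM in the controls and at 35.9, 28.4 and 32.35 CPM in cKO. The highest and the lowest value both came from cKO mice, and the log2 fold change was -0.02 (95% interval -0.23 to 0.18, edgeR adjusted p = 0.981). Lig1, the replicative and long-patch ligase, was at 34.3, 33.0 and 37.7 CPM in controls and at 32.1, 31.7 and 32.6 CPM in cKO. Its cKO values were all lower, with control replicate 3 the highest, and the log2 fold change was -0.13 (95% interval -0.29 to 0.04, edgeR adjusted p = 0.846).

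Fen1, the flap endonuclease of long-patch repair and replication (chromosome 19, 10199132 to 10204169), was almost absent from the count table. It had 0, 3 and 11 reads in the controls and 1, 3 and 0 in the cKO mice, or 18 in all, and was the 1 member removed by the filter. Exons of Tmem258 and Gm10143 on the opposite strand cover 84.2% of the Fen1 exon length, the highest share of any member. Tmem258 had 3152 reads at 23.0 FPKM, and opposite-strand exons covered 8.07% of its own exon length. Gm10143 had 61 reads at 0.135 FPKM, and 57.3% of its exon length was covered in this way. Among protein-coding genes of the table, the median level was 1.78 FPKM in the 16190 with no such overlap and 7.45 FPKM in the 3252 with an overlap of up to 10%. It was 5.4 FPKM in the 1210 with an overlap above 10% and up to 25%, 3.19 FPKM in the 535 up to 50%, a range that holds Mpg and Lig3, and 1.55 FPKM in the 121 up to 75%, which include Apex1. Above that it was 0.12 FPKM in the 31 with up to 90%, which include Fen1, and 0.00 FPKM in the 58 above 90%. Genes under 0.1 FPKM made up 31.1% of those with no overlap, 13.1% in the range of Mpg and Lig3, 17.4% in that of Apex1, 48.4% in that of Fen1 and 70.7% above 90%. The strand setting of the counting is not given in the sources used here, and the part of the overlap in the Fen1 value was not tested. The members with more than 20% overlap were Fen1, Apex1 (61.7%), Mpg (35.7%) and Lig3 (25.1%). Apex1 and Mpg are also among the 7 members whose groups did not overlap, and the part of the opposite-strand exons in their values was not tested.

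**Figure D3:**
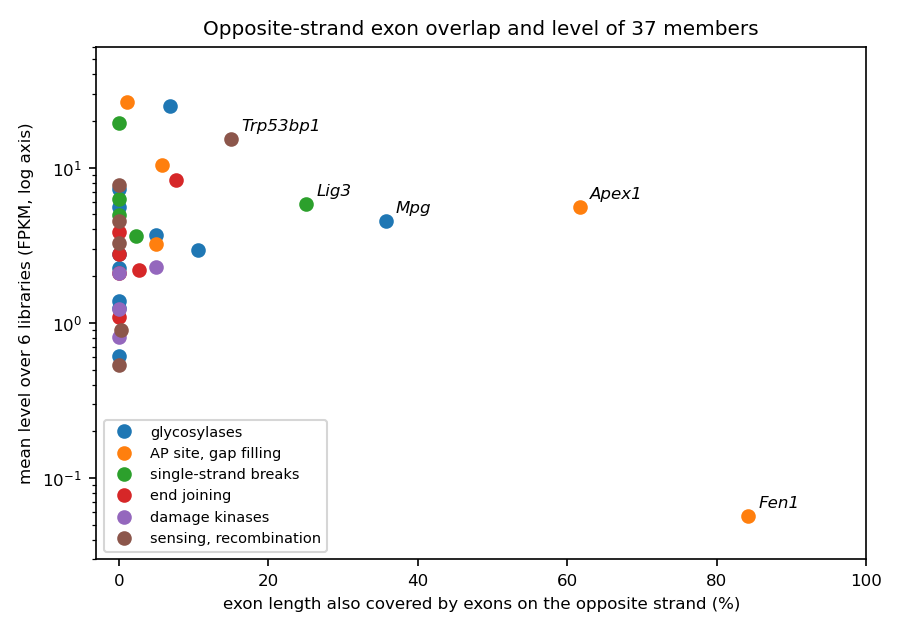
Mean level over 6 libraries in FPKM on a log axis (y) against the percent of exon length also covered by exons on the opposite strand (x), 1 point per member, coloured by pathway group. Fen1 combines the highest overlap, 84.2%, with the lowest level, 0.0567 FPKM, while Apex1 with 61.7% lies at 5.57 FPKM, among the other members.

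Single-strand break factors had the smallest median size of the log2 fold change of the 6 role groups, 0.03. Xrcc1, the scaffold recruited by poly(ADP-ribose) (chromosome 7, 24546289 to 24573440), was at 45.0, 42.2 and 38.6 CPM in the controls and at 39.0, 42.6 and 44.8 CPM in the cKO mice. The 2 groups covered the same range, with a log2 fold change of 0.01 and a 95% interval from -0.17 to 0.19 (edgeR adjusted p = 0.992). Lig3, the ligase bound to XRCC1, was at 35.8, 38.9 and 33.6 CPM in controls and at 33.35, 35.3 and 31.2 CPM in cKO. The groups overlapped, and the log2 fold change was -0.12 (-0.30 to 0.06, edgeR adjusted p = 0.862). Aplf, a histone chaperone with zinc fingers that bind poly(ADP-ribose), was at 11.55, 11.64 and 9.08 CPM in controls and at 11.64, 11.99 and 13.4 CPM in cKO. Its groups met at 11.64 CPM and were separate only beyond that digit, control replicate 3 was the lowest library, and the log2 fold change of 0.20 (-0.08 to 0.48, edgeR adjusted p = 0.849) was 0.09 without control replicate 3 and reached 0.27 without control replicate 2. Aptx and Tdp1, which clear blocked 5' and 3' ends, had log2 fold changes of -0.03 and 0.03, and Tdp1 had the lowest coefficient of variation over the 6 libraries of all members, 4.96%.

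Among end-joining genes 0 of 6 had groups that did not overlap, beside 11.9% of all tested genes. Of their log2 fold changes, 4 of 6 were negative (median -0.10). Xrcc6 and Xrcc5 encode the small and the large subunit of Ku, which bind DNA ends as a pair, and their levels were 8.29 ± 0.794 and 3.83 ± 0.628 FPKM (SD, n = 6 libraries). Xrcc5 was at 11.4, 8.14 and 11.9 CPM in the controls and at 10.1, 9.05 and 8.21 CPM in cKO. Control replicate 2 was the lowest and control replicates 1 and 3 the highest of the 6 libraries, and the log2 fold change was -0.20 (95% interval -0.54 to 0.14, edgeR adjusted p = 0.879). Xrcc6 was at 26.9, 31.1 and 23.8 CPM in controls and at 26.2, 29.1 and 27.0 CPM in cKO, with the cKO values inside the control range (log2 fold change 0.01, 95% interval -0.21 to 0.23, edgeR adjusted p = 0.993). Prkdc, the catalytic subunit of DNA-PK, was at 28.3, 26.1 and 27.6 CPM in controls and at 24.4, 26.9 and 25.4 CPM in cKO, a log2 fold change of -0.10 (-0.28 to 0.08, edgeR adjusted p = 0.890). The ligation complex was less abundant, with Lig4 at 2.79, Xrcc4 at 2.19 and Nhej1 at 1.09 FPKM on average and log2 fold changes of -0.13, -0.10 and 0.09.

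Damage kinases averaged at most 2.29 FPKM, in the range of members of other groups such as Ung (2.25 FPKM) and Prkdc (2.09 FPKM). Atm, the kinase activated by double-strand breaks, was at 19.1, 22.8 and 19.9 CPM in controls and at 18.9, 24.0 and 21.3 CPM in cKO. The cKO mice held both the lowest and the highest value, and the log2 fold change was 0.05 (95% interval -0.19 to 0.30, edgeR adjusted p = 0.952). Atr, which responds to single-stranded DNA at stalled forks, was at 16.05, 20.7 and 22.5 CPM in controls and at 15.9, 17.2 and 18.6 CPM in cKO. The log2 fold change was -0.20 (-0.47 to 0.07, edgeR adjusted p = 0.846), and control replicate 1, at 16.05 CPM, lay within the cKO range. Chek2, the effector kinase downstream of ATM (chromosome 5, 110839979 to 110874145), was at 1.79, 2.990 and 2.05 CPM in controls and at 3.70, 2.988 and 3.10 CPM in cKO. Control replicate 2 lay just above the lowest cKO value, so the groups overlapped there. The log2 fold change of 0.50 was the second largest of the members, with a 95% interval from -0.02 to 1.02 (edgeR adjusted p = 0.812). It ran from 0.37 (without control replicate 1) to 0.75 (without control replicate 2), with edgeR adjusted p of at least 0.452. Chek1, the effector of ATR, had 0.14 (-0.29 to 0.57).

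**Figure D4:**
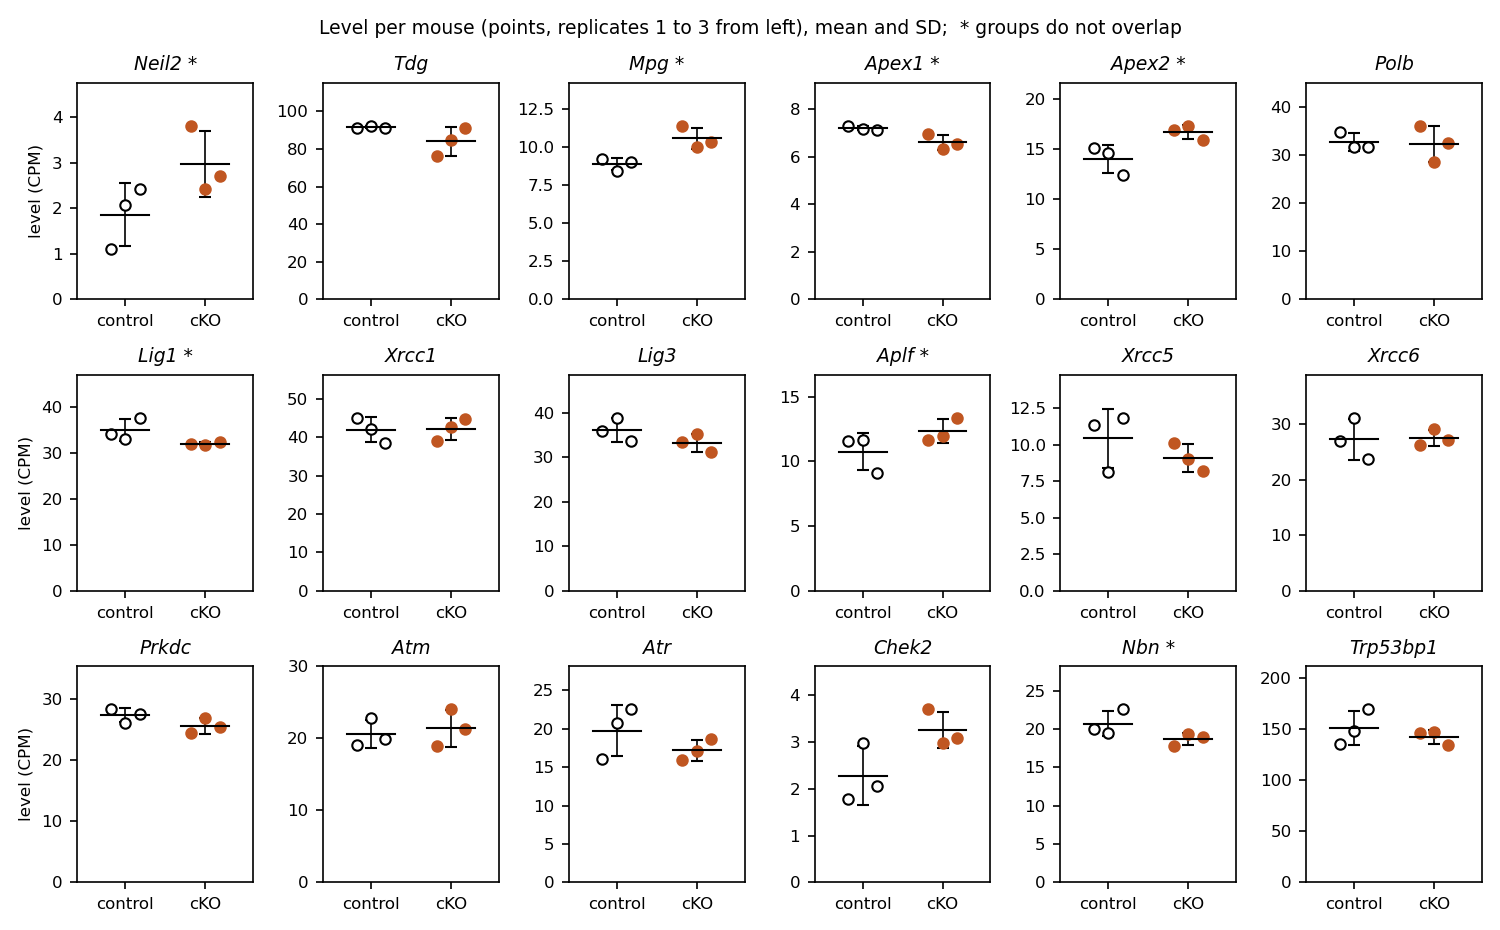
Level in CPM (y) in each of 3 control mice (open points) and 3 cKO mice (filled points) for the 18 members described per mouse, with the group mean as a line and the SD as a bar. A star marks the 7 genes whose groups did not overlap, among them Neil2, where the highest control and the lowest cKO mouse stood at 2.418 and 2.423 CPM.

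Genes that sense breaks and carry out homologous recombination had log2 fold changes from -0.15 to 0.10. Nbn, the nibrin subunit of the MRN complex (chromosome 4, 15957925 to 15992589), was at 20.04, 19.5 and 22.6 CPM in controls and at 17.9, 19.3 and 18.9 CPM in cKO. The cKO values were all lower, though by little in cKO replicate 2 against control replicate 2, and the log2 fold change was -0.15 (95% interval -0.36 to 0.06, edgeR adjusted p = 0.853). Rad50, the MRN ATPase, had -0.02. Trp53bp1, which steers breaks towards end joining, was at 136, 148 and 169 CPM in controls and at 146, 147 and 135 CPM in cKO, the most reads per library of any member. Control replicate 3 was the highest, and the log2 fold change was -0.08 (-0.26 to 0.09, edgeR adjusted p = 0.902). Mdc1, the mediator that binds phosphorylated H2AX, had 0.10, and the recombination genes Brca1 and Brca2 had -0.01 and 0.08.

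Promoters were compared as a sequence feature that the choice of members did not use. The set of RefSeq start sites used here (GRCm38.p6, the mm10 build) held 31 of the 37 members, and the 250 bases before each start were read. Neil2, Apex2, Polb, Prkdc, Rad50 and Nbn had no entry in this set. The E2F consensus, the site of the factors that switch on genes at entry into DNA synthesis, was searched as TTTCCCGC, TTTGGCGC, TTTCGCGC or TTTGCCGC on either strand, counting a gene once over all its starts. It was found in 5 of 31 members (16.1%), Brca2, Chek2, Mdc1, Nthl1 and Xrcc6, and in 3.54% of the 12467 tested genes with an entry. Members without a match included Chek1, Atr, Brca1, Fen1 and Lig1. The windows of Nthl1 and Xrcc6 are not shown. Those of the 3 checkpoint and recombination genes with a match are given 5' to 3' on the gene's strand, with the match in capitals.
Chek2, chr5:110839733-110839982, plus strand: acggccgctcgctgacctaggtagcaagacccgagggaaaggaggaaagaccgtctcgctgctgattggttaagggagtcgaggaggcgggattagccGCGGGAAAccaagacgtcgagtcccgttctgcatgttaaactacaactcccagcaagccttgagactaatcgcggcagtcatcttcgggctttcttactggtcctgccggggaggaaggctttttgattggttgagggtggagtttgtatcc
Brca2, chr5:150522371-150522620, plus strand: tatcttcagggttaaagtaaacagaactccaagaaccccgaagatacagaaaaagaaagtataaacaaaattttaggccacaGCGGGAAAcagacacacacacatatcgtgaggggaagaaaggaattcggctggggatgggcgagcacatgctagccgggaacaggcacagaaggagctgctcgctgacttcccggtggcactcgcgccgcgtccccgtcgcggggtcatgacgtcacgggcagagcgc
Mdc1, chr17:35841248-35841497, plus strand: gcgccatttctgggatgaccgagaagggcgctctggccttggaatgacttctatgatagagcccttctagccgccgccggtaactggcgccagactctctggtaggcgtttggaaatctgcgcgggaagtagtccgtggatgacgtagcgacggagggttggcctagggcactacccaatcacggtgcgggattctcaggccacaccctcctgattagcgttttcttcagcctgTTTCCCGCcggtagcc
The match began 152 bases before the start in Chek2, 168 bases before it in Brca2 and 16 bases before it in Mdc1. Other motifs were searched on both strands. CCGGAAG (Ets factors) was in 5 of 31 members (16.1%) and 13.4% of tested genes. The 10-letter palindromic consensus of NRF1 was in only 2 members (6.45%) and in 1.67% of tested genes. CCAAT was in 16 members (51.6%) and 39.6% of tested genes. None of these motifs contains another. The windows held 17 CpG dinucleotides in the median member and 16 in the median tested gene. A match describes the letters of the window and was not tested for use.

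Other genes of the same pathways, from lists that hold none of the members, gave the same count of 0 called by edgeR. Among 17 further base excision and single-strand break genes 0 passed in either direction, with 1 at an unadjusted p under 0.05. That was Pold3, a subunit of DNA polymerase delta, at 34.3 ± 3.03 CPM in controls and 39.6 ± 0.950 CPM in cKO (SD, n = 3 mice each; log2 fold change 0.21, edgeR adjusted p = 0.718). For Pold1, the catalytic subunit, the log2 fold change was 0.30 (adjusted p = 0.798 by edgeR). The median over the 17 genes was -0.03, with 7 positive and 10 negative. Groups did not overlap for 3 of the 17 (17.65%, beside 11.9% of all tested genes), Pold3 and Pold1 among them, all 3 higher in cKO.

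Among 14 further end-joining genes, Dclre1c, the nuclease Artemis that opens hairpin ends, stood at 13.7 ± 0.449 CPM in controls and 17.8 ± 1.21 CPM in cKO (SD, n = 3 mice each). All 3 cKO mice were above all 3 controls, and the log2 fold change was 0.38 with a 95% interval from 0.16 to 0.60, with the smallest adjusted p of the repair genes examined here (0.301 by edgeR). Mad2l2, a subunit of the shieldin complex, had -0.25 (edgeR adjusted p = 0.794), with all 3 cKO mice below all 3 controls. Groups did not overlap for 3 of the 14 genes (21.4%, beside 11.9% of all tested genes). Dclre1c and Mad2l2 were the 2 at an unadjusted p under 0.05 by edgeR (14.3%, beside 6.27%). Of 20 tested further recombination genes 15 had a positive log2 fold change (median 0.08). Rad52, an annealing protein, was at 0.21 (edgeR adjusted p = 0.768) and Dna2, a nuclease and helicase of end resection, at 0.22 (edgeR adjusted p = 0.850). Groups did not overlap for 2 of these 20 genes (10%), Rad52 among them. By edgeR, Rad52 was the 1 at an unadjusted p under 0.05. Among 17 further checkpoint genes the median was 0.02. Hus1, a subunit of the damage clamp, was at -0.19 (edgeR adjusted p = 0.849) and Clspn, the CHK1 adaptor claspin, at 0.32 (edgeR adjusted p = 0.845). Groups did not overlap for 2 of those 17 genes (11.8%), Clspn among them.

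The most similar other repair pathways also held no called gene by edgeR. Medians of the log2 fold changes were 0.03 over 7 mismatch repair genes, -0.01 over 20 nucleotide excision repair genes and 0.10 over 13 Fanconi anaemia genes. Named from these lists for their rank by p, though none was near the threshold, were Mlh3, a mismatch repair protein of the MutL family, at 0.09 (edgeR adjusted p = 0.903), Rad23b, a partner of XPC, at -0.08 (0.893), and Gtf2h2, a TFIIH subunit, at 0.09 (0.895). In the Fanconi list the smallest p belonged to Fancd2, the protein that is monoubiquitinated at crosslinks, at 0.28 (edgeR adjusted p = 0.791), and to Fancb, a core complex subunit, at 0.30 (edgeR adjusted p = 0.862). At an unadjusted p under 0.05 they had 0, 0 and 1 gene. Of 20 p53 target genes, the transcriptional output of the checkpoint, 0 were called and 2 had an unadjusted p under 0.05. Eda2r, a death-domain receptor, was at 1.497 ± 0.111 CPM in controls and 3.13 ± 0.281 CPM in cKO (SD, n = 3 mice each; log2 fold change 1.06, 95% interval 0.57 to 1.55, edgeR adjusted p = 0.118). Fas, another death receptor, was at 0.63 (adjusted p = 0.785), and the median over the 20 genes was 0.05.

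Markers of cell types moved between the libraries beside these values. Proliferation genes (26 of 26 in the table) summed to 191, 206 and 157 CPM in the controls and to 242, 220 and 209 CPM in the cKO mice, and 24 of the 26 had a positive log2 fold change with 0 called by edgeR (4 at an unadjusted p under 0.05). Myelin and mature oligodendrocyte genes (14 of 14 in the table) summed to 560 to 722 CPM in controls and 280 to 323 CPM in cKO, with 7 of 13 tested called lower by edgeR. Oligodendrocyte precursor markers (10 of 11 in the table) summed to 886 to 958 CPM in controls and 644 to 777 CPM in cKO, with 4 of 10 called lower. Markers of newly formed oligodendrocytes summed to 1110 to 1230 CPM in controls and 795 to 846 CPM in cKO, with 5 of 10 called lower. Microglial markers summed to 330 to 501 and 510 to 624 CPM, with 12 of 12 log2 fold changes positive and 0 called by edgeR (7 at an unadjusted p under 0.05). Endothelial and pericyte markers summed to 299 to 347 and 301 to 397 CPM, with 10 of 10 positive and 0 called by edgeR (2 at an unadjusted p under 0.05). Neuronal markers summed to 6730 to 7290 CPM in controls and 6710 to 7120 CPM in cKO, and astrocyte markers to 3960 to 4280 and 4080 to 4410 CPM, so their groups overlapped. The part of these cell type differences in the members' values was not tested.

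Averaged over the 36 tested members, the log2 level relative to the mean of all libraries was -0.05, 0.05 and -0.07 in the controls and 0.02, 0.04 and 0.01 in the cKO mice. The spread among controls covered the range of the cKO mice. Control replicate 3 held the lowest value for 11 of the 36 members, more than any other library, and the highest for 6. By group its relative level was lowest for the glycosylases, at -0.18. Without control replicate 3, again 0 members were called by edgeR (1, Neil2, at an unadjusted p under 0.05), the median log2 fold change was -0.06, and 8 members had groups that did not overlap (22.2%, beside 21% of all genes tested in those 5 libraries). Without control replicate 1 the count was 0 with a median of 0.00.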

How the data were processed

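Per the labels' protocols, libraries of poly-A RNA from 6 forebrains were made with a kit that keeps strand. The deposited counts give the reads assigned to each Ensembl identifier as integers, with 1 column for each library. The submitters' processing notes name CASAVA, STAR 2.5, HTSeq 0.6.1, DESeq and mm10 but give them no roles. Neither the annotation release nor the strand setting of the counting is given there. Unstranded or wrongly stranded counting would mix or drop reads where genes overlap on opposite strands. The deposited FPKM equal the count divided by 1 length per gene and the library total (100% of values gave a whole length within 0.01 bp). Of 35275 identifiers, 785 had no name in GENCODE M21 and took 0.119% to 0.130% of the counts; they stayed in the library sizes and tests. Counts ran from 17262042 to 29310193 per library, and every pair of libraries differed by more than sampling noise (chi-square per degree of freedom 4.34 to 23.8).

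Tests used edgeR 4.0.16 in R 4.3.3: filterByExpr (minimum count 10, minimum total 15; 16938 genes kept), TMM, robust quasi-likelihood, two-sided, 3 against 3, Benjamini-Hochberg adjustment over all tested genes, threshold 0.05. The code was tested on simulated data. The design text gives 3 cKO mice and 3 littermate controls, taken here as 1 mouse per library, and the labels do not say which mice share a litter. Alternatives were DESeq2 size factors, library size, no filter, a minimum mean of 1 CPM, the DESeq2 test (version 1.42.0), limma 3.58.1 on log2(FPKM + 1) or log2(FPKM + 0.1) for genes averaging 0.5 FPKM or more, limma without that filter, a replicate block, and each library left out.

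Members and lists were chosen with earlier results of these data known. Members described per mouse were those called, those whose groups did not overlap, in each role group the 2 with the smallest p and the most abundant, and Xrcc1, Lig3, Polb and Atm. From each other repair, checkpoint and p53 list, the 2 genes with the smallest p were named, except 1 that is not reported here. Fen1, its overlapping neighbours and Ddx3y were singled out after their values were seen.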

Additional observations from a re-analysis of the deposited data

How the results depend on the processing

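No member was called by edgeR, DESeq2 or limma under any of the 15 alternatives (0 each time), and at an unadjusted p under 0.05 there were 0 to 3 members. The number of all genes called moved more, from 45 to 111 without a filter, 113 by DESeq2, 21 to 24 by limma on FPKM, 28 to 60 with 1 library left out and 32 with the replicate block. With 1 library left out, the members' median log2 fold change ran from -0.06 (without control replicate 3) to 0.05 (without control replicate 2), and 8 to 11 members had groups that did not overlap, where fewer libraries make this easier (18.6% to 24.6% of all genes). With DESeq2 size factors 5 members did so, which is 13.9% beside 12% of all tested genes. With TMM it was 7 members, 19.4% beside 11.9%, so the excess over all genes depended on the scaling. Of 540 member values, 38 in 15 members had the opposite sign, all in members whose log2 fold change was at most 0.09 in size. Ung had -0.01 with library sizes, 0.00 by DESeq2 and with the replicate block, and -0.01 and -0.02 by limma (-0.01 without a filter); Smug1 had 0.01 without a filter, 0.00 with the 1 CPM minimum and 0.01 with the replicate block. With each library left out the ranges were Aptx -0.09 to 0.04, Atm -0.04 to 0.13, Brca1 -0.19 to 0.13, Brca2 0.00 to 0.13, Mutyh -0.15 to 0.06, Nhej1 -0.13 to 0.36, Ogg1 -0.20 to 0.03, Polb -0.10 to 0.06, Rad50 -0.10 to 0.12, Smug1 -0.11 to 0.09, Tdp1 -0.03 to 0.06, Trp53bp1 -0.15 to 0.00, Ung -0.15 to 0.15, Xrcc1 -0.05 to 0.06, Xrcc6 -0.09 to 0.12. The replicate block called 0 members. Correlations of the deviations of same-numbered libraries were -0.0192, -0.0634 and -0.0147, and those of differently numbered libraries ran from -0.0772 to 0.118. With 3 libraries per group these values cannot decide whether the numbers pair the mice. Depth limits the low members, since Nhej1 had 12 to 34 reads per library.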
